A study of Mus musculus with 2 samples.

Results

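The genes described here are 9 chemokine receptors of leukocytes, Ccr1, Ccr2, Ccr7, Ccr9, Cxcr3, Cxcr4, Cxcr5, Cx3cr1 and Xcr1, followed across the cell classes of the mouse dorsal meninges after a Sham procedure or a mild traumatic brain injury (TBI). They were chosen by symbol among the 32285 genes counted, and all 9 were found. The study pooled the dorsal meninges of 5 male C57BL/6 mice (C57BL/6J in the paper) per group 1 week after a single closed-skull impact or the Sham procedure, at 10 weeks of age by the sample descriptions and 10 to 12 weeks by another field. The mice carried no named transgene or induced mutation. Live singlet cells were sorted and profiled by droplet single-cell RNA-seq, in which each captured transcript receives a unique molecular identifier (UMI). Each group is therefore 1 library of 5 pooled mice. No difference between Sham and TBI has a replicate check, no test between the groups was possible, and the 95% intervals given (exact Poisson for levels, exact binomial for ratios and Clopper-Pearson for shares of cells) cover counting error only.

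Chemokine receptors are membrane-spanning receptors coupled to inhibitory G proteins, and they steer leukocytes along gradients of secreted chemokines. Some of them draw cells from blood into inflamed tissue, whereas others hold cells in bone marrow or guide them to lymph nodes and follicles. In the membranes around the brain they mark resident macrophages, dendritic cells on their way to draining nodes, and the lymphocytes that patrol the dura.

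The libraries held 2043 Sham and 3773 TBI cells after filtering, with 7866611 and 13940740 UMIs and a median of 2764 and 2663 UMIs per cell. A few facts of the whole series touch all results. Fibroblast-like cells made up 5.97% of Sham and 20.3% of TBI cells, and 20 barcodes occurred in both libraries, 14 of them among the cells kept. Cells were divided into 24 classes, 17 of immune and 7 of non-immune cells, with 24 chemokine receptor genes left out of the genes used for clustering and of the markers. Classes are called by their markers with the suffix "-like". The macrophage-like cells formed 3 clusters named by a leading gene: Ccl8 (with Cd209g, Cd209f and F13a1), Fcrls (with Mrc1, Folr2 and Lyve1) and Fcgr4 (with Slamf9, H2-Eb1 and Ctss). Their median depths differed, at 928 and 1087 UMIs in the Ccl8 cluster, 6271 and 5889 in the Fcrls cluster and 7563 and 6496 in the Fcgr4 cluster (Sham, then TBI, as throughout). Shares of cells with a UMI follow depth. Some are therefore given beside the share after every cell was thinned to 1000 UMIs. This step was a single random draw of UMIs from each cell, and its own spread was not measured. It leaves out 388 Sham and 539 TBI cells with fewer. Shares and counts of cells without a thinned value beside them are at full depth, and depth was not taken out of them.

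Of the 9 genes, 6 lie on chromosome 9 (positions on GRCm38, GENCODE vM21). Among them Ccr9 (ENSMUSG00000029530) spans chr9:123678439-123784330 and Ccr2 (ENSMUSG00000049103) chr9:124101950-124113557, both on the plus strand, and Xcr1 (ENSMUSG00000060509) at chr9:123852315-123862029 and Ccr1 (ENSMUSG00000025804) at chr9:123962124-123968692 lie between them on the minus strand. Cx3cr1 (ENSMUSG00000052336) spans chr9:119901616-120069879 and Cxcr5 (ENSMUSG00000047880) chr9:44511787-44561877, both on the minus strand. The remaining members are Cxcr4 (ENSMUSG00000045382) at chr1:128588199-128592293, Ccr7 (ENSMUSG00000037944) at chr11:99144196-99155077 and Cxcr3 (ENSMUSG00000050232) at chrX:101731535-101734269. All 9 are protein-coding. Ccr9 shares exonic sequence on its own strand with Gm17200, so that its counts are less certain than those of the others.

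Xcr1 and Ccr1 lie near each other on the same strand, yet Xcr1 was found almost only in type 1 dendritic-like cells. Ccr1 was found in several classes, among them neutrophil-like, macrophage-like and type 2 dendritic-like cells. No Ccr1 UMI was found in the 14 Sham and 32 TBI type 1 dendritic-like cells. The upstream sequences of both genes are shown for that contrast. Each is the 250 bases before the RefSeq start on the minus strand of GRCm38.p6, for Ccr1 at chr9:123968693-123968942 and for Xcr1 at chr9:123862030-123862279, written 5′ to 3′ along the gene. Capitals mark matches, on either strand, of GAGGAA (the core bound by PU.1-type ETS factors), CAGGAA (other ETS factors) and TGTGGT (RUNX factors).
Ccr1: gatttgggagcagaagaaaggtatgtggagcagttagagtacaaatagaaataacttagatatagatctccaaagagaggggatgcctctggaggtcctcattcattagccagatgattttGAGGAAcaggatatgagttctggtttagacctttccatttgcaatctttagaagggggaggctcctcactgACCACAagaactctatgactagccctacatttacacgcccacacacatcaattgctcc
Xcr1: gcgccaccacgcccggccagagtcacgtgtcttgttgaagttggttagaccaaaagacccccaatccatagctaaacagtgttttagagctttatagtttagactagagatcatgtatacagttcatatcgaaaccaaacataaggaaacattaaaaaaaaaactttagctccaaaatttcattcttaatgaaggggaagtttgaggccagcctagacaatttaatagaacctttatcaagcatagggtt
The Ccr1 window held GAGGAA beginning 129 bases before the start and TGTGGT, on the other strand, beginning 58 bases before it. None of the 3 motifs was in the Xcr1 window, which says only that these letters are not in these 250 bases. Of 32851 RefSeq promoter windows of this length, 23.3% held GAGGAA, 25.7% CAGGAA and 14.0% TGTGGT on either strand, so a match is common and describes the sequence only. A window was found for 7 of the 9 members, and not for Ccr7 and Cxcr5. GAGGAA was in the windows of Ccr1 and Cxcr3, CAGGAA in those of Ccr2, Cxcr3 and Cx3cr1, and TGTGGT in those of Ccr1, Cxcr3 and Cx3cr1.

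The class with the highest level was the same in both libraries for 8 of 9 members, a count that was not made over all genes. For Ccr1 and Cxcr4 that class, the neutrophil-like cells, held few UMIs of the gene. Levels are given as CPM, the UMIs of the gene scaled by the UMI total of the class. When the CPM of the 24 classes were summed with equal weight, 4 of 9 members had over 50% of that sum in 1 class: Xcr1 (96.8% in type 1 dendritic-like cells), Ccr9 (81.1% in plasmacytoid dendritic-like cells), Ccr7 (79.6% in migratory dendritic-like cells) and Cxcr5 (58.8% in follicular B-like cells). Of all 13086 genes with at least 50 UMIs, 10.8% had over 50% in 1 class. The same held for 4 of the 9 other chemokine receptors with enough UMIs. The top class held 38.1% for Ccr1 (neutrophil-like), 36.7% for Cxcr3 (T-like), 34.0% for Cx3cr1 (Fcrls macrophage-like), 26.1% for Cxcr4 (neutrophil-like) and 16.9% for Ccr2 (Fcgr4 macrophage-like), the most widely spread member. Immune classes held between 97.1% (Cxcr4) and 99.7% (Ccr7) of each member's UMIs.

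**Figure D1:**
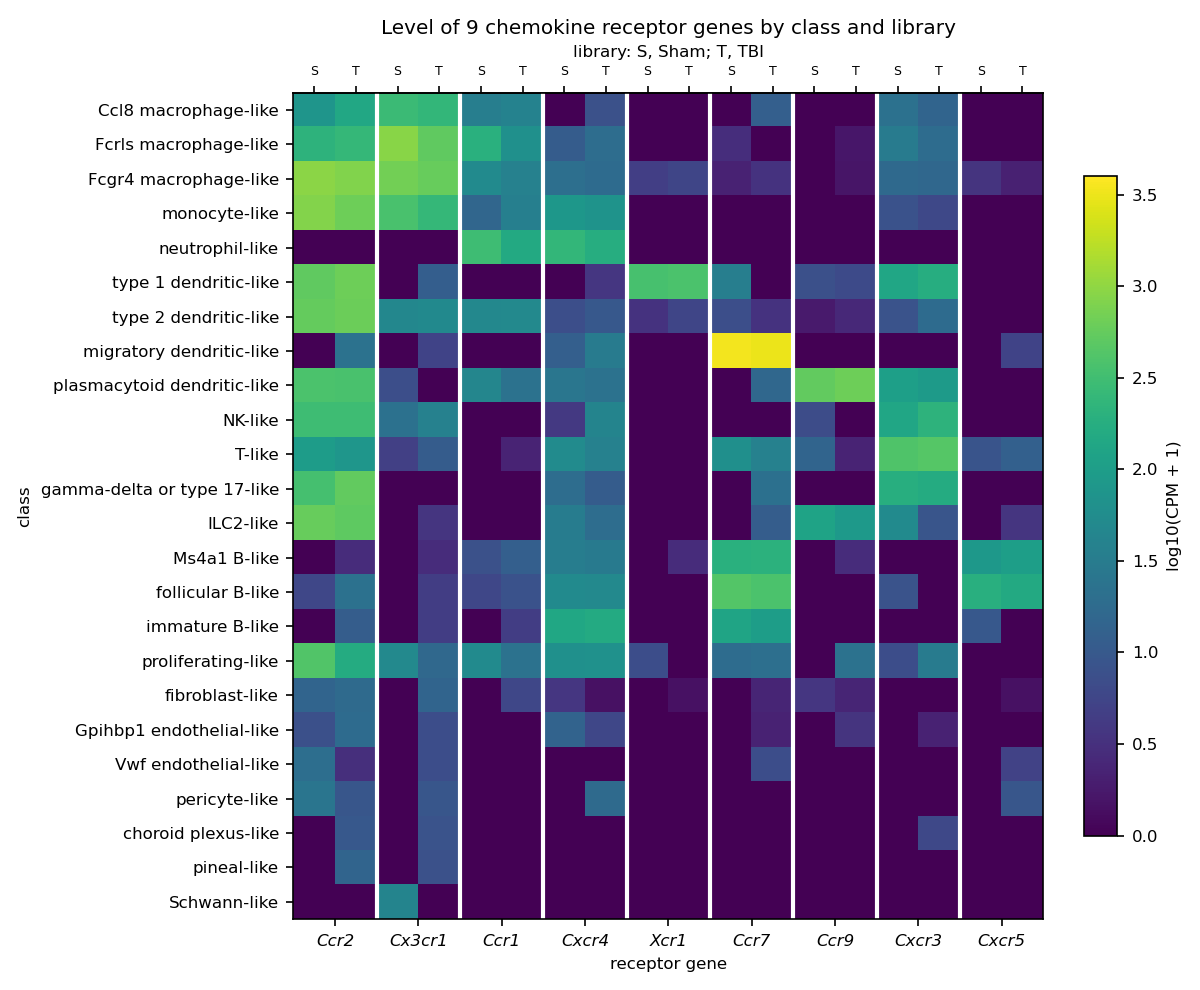
Level of the 9 receptor genes (columns, a pair per gene: S, Sham and T, TBI) in the 24 classes (rows), coloured by log10(CPM + 1). Xcr1, Ccr9 and Ccr7 each light up chiefly in 1 dendritic-like class, while Ccr2 is bright in myeloid, dendritic, NK and ILC2-like rows and the non-immune rows at the bottom stay dark.

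The 9 genes in 24 classes make 216 pairs, of which 137 had a UMI and 36 had at least 50 UMIs over both libraries, in 16 classes. Of these 36, 7 (19.4%) differed at least 1.5-fold between the libraries, 4 lower and 3 higher in TBI. Depending on the class, 7.35% to 17.9% of all genes with at least 50 UMIs differed as much. For 8 of the 36 the counting interval of the ratio left out 0, a count that was not made over all genes. The 7 pairs were Ccr1 and Cx3cr1 in Fcrls macrophage-like cells, Ccr2 in Ccl8 macrophage-like, γδ or type 17 T-like and proliferating-like cells, Ccr7 in T-like cells and Cxcr3 in NK-like cells.

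**Figure D2:**
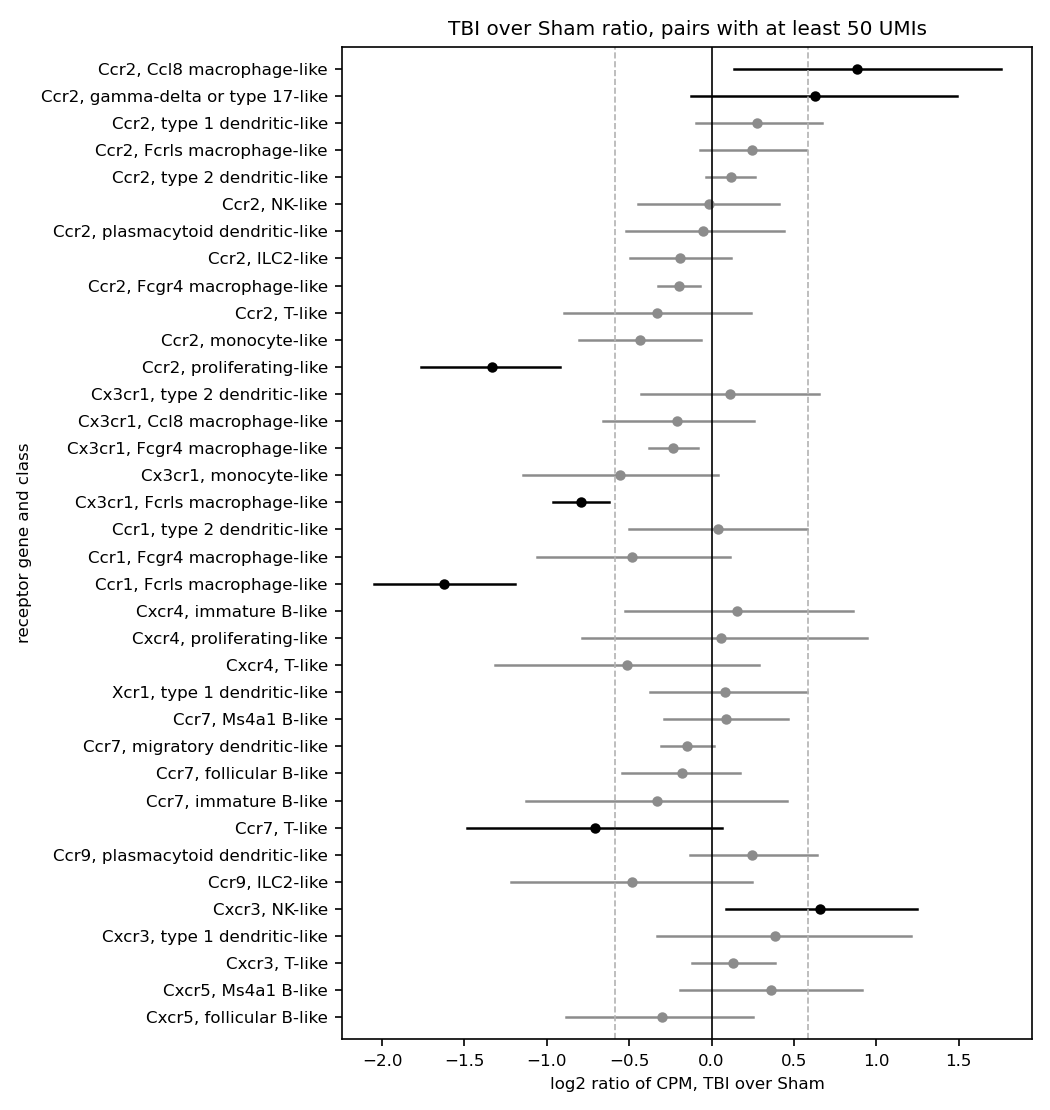
Log2 ratio of CPM, TBI over Sham, for the 36 pairs of receptor and class with at least 50 UMIs. Points are ratios, lines the 95% counting intervals, dashed lines 1.5-fold in either direction, and the 7 pairs past it are black. Ccr1 in Fcrls macrophage-like cells, at -1.62, lies farthest from 0.

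Ccr2 binds Ccl2, Ccl7 and Ccl12 and is known for bringing inflammatory monocytes out of bone marrow and into tissue. Its level was highest in Fcgr4 macrophage-like cells, at 953 CPM in Sham (786 UMIs, interval 887 to 1022) and 830 CPM in TBI (1422 UMIs, 788 to 875). In these cells it was detected in 81 of 103 Sham and 201 of 253 TBI cells, 78.6% and 79.4%, and after thinning in 46.5% and 49.0%. The ratio was -0.20 on the log2 scale (-0.32 to -0.07), or 1.15-fold lower in TBI, and with each cell given equal weight it was -0.01. The share of cells with Ccr2 thus differed by less than its counting interval.

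Monocyte-like cells came next, with 867 CPM in Sham and 642 CPM in TBI (121 and 129 UMIs in 32 and 41 cells), and the Sham intervals of these first 2 classes overlapped. The class held a Ccr2-rich subcluster with the classical monocyte genes Ly6c2, Chil3 and Fn1, at 1505 CPM in 9 Sham cells and 888 CPM in 16 TBI cells. Its other subcluster, led by Ifitm1, Cd9 and Fabp4, had 217 and 274 CPM in 23 and 25 cells. That larger subcluster carried the non-classical monocyte genes Eno3 and Spn. The class as a whole was named by non-classical monocyte markers, among them Treml4, Ace and Cd300e. The Ccr2 of the class was therefore mostly that of its Ly6c2-bearing cells, where 9 of 9 Sham and 15 of 16 TBI cells had a UMI.

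Among dendritic-like cells, which present antigen to T cells, Ccr2 was at 568 and 616 CPM in type 2 cells (113 of 134 and 148 of 190 cells) and at 518 and 631 CPM in type 1 cells (13 of 14 and 27 of 32 cells). The intervals of these 2 classes overlapped in both libraries. Plasmacytoid dendritic-like cells, the interferon-producing kind, had 379 and 367 CPM. Migratory dendritic-like cells had 0 UMIs in Sham and 5 in TBI (21.7 CPM), and neutrophil-like cells had 0 in both libraries.

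Lymphoid classes carried Ccr2 at intermediate levels. ILC2-like cells, innate lymphocytes of the type 2 response, had 581 and 509 CPM in 64 of 104 and 79 of 136 cells. NK-like cells had 304 and 301 CPM, and their detected shares were 42.5% and 42.9%. In the γδ or type 17 T-like class Ccr2 was at 345 CPM in Sham and 542 CPM in TBI, from 19 and 54 UMIs in 13 and 25 cells. That ratio of 0.63 is past 1.5-fold, as for 8.5% of genes in the class, but its interval (-0.12 to 1.49) includes 0, and with cells assigned by their own markers it was 0.35, under 1.5-fold. T-like cells had 96.6 and 76.8 CPM, about an order of magnitude below the Fcgr4 cluster.

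In Ccl8 macrophage-like cells, which carry genes of resident perivascular and dural macrophages, Ccr2 was low in both libraries and higher in TBI: 74.9 CPM in Sham (18 UMIs) and 141 CPM in TBI (63 UMIs). A UMI was found in 11 of 190 Sham cells (5.79%, 2.93% to 10.1%) and 36 of 312 TBI cells (11.5%, 8.21% to 15.6%), or 5.75% and 9.39% after thinning. The ratio was 0.88 (0.14 to 1.76). At least 1.5-fold differences were found for 14.6% of genes in this class. One Sham cell held 27.8% of the Sham UMIs, and the shares of cells overlapped in their intervals. In this class predicted doublets were 0 and 6 cells, and the ratio without them was 0.94. Fibroblast markers took 0.05% and 0.14% of its UMIs, B cell markers 0.011% and 0.062% and mitochondrial genes 3.21% and 4.36%, and their part in the ratio was not tested.

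Proliferating-like cells went the other way, with 417 CPM in Sham (139 UMIs) and 165 CPM in TBI (75 UMIs), a ratio of -1.33, where 17.5% of genes differed at least 1.5-fold. Predicted doublets were 13 of its 35 Sham and 20 of its 58 TBI cells, and without them the ratio moved to -2.16. With cells assigned by their own markers it was -0.80. This class mixed cell types. Its subcluster with B cell genes (22 and 44 cells) had 6.70 and 6.92 CPM of Ccr2, and its subcluster with Cd209a, Mgl2 and Clec10a (13 and 14 cells) had 749 and 439 CPM. The second subcluster made up a smaller part of the TBI class, and within it the level was also lower in TBI, in 12 of 13 Sham and 13 of 14 TBI cells.

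Cx3cr1, the receptor of the membrane-bound chemokine Cx3cl1, is characteristic of tissue macrophages, microglia and patrolling monocytes. In Fcrls macrophage-like cells it was at 900 CPM in Sham (450 UMIs, 819 to 987) and 520 CPM in TBI (767 UMIs, 484 to 558). The level was 1.73-fold lower in TBI, with a log2 ratio of -0.79 (-0.96 to -0.62), while 11.9% of genes in the class differed at least 1.5-fold. The shares of cells with a UMI overlapped in their intervals, with 64 of 74 in Sham (86.5%, 76.6% to 93.3%) and 192 of 241 in TBI (79.7%, 74.0% to 84.6%), and thinned shares were 45.9% and 39.4%. The difference lay more in the number of UMIs per cell, whose median was 5 in Sham and 2 in TBI and whose highest value was 30 and 16.

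The Fcgr4 macrophage-like cells had Cx3cr1 at 684 CPM in Sham and 582 CPM in TBI, in 93 of 103 and 209 of 253 cells. The ratio of -0.23 (-0.38 to -0.08) did not reach 1.5-fold, which 9.39% of genes did in this class. None of the 3 members measured there (Ccr1, Ccr2 and Cx3cr1) did. The class with the highest Cx3cr1 was the Fcrls cluster in Sham and the Fcgr4 cluster in TBI, where the counting intervals of these clusters overlapped. Cx3cr1 was the only member whose top class was not the same. Ccl8 macrophage-like cells had 279 and 242 CPM, a ratio of -0.21 that turned to 0.65 without the limit on hemoglobin UMIs. Monocyte-like cells had 365 and 249 CPM. Neither reached 1.5-fold in the main setting, but the 0.65 of Ccl8 macrophage-like cells without that limit is past it. In the monocyte-like class, where 13.8% of genes were past 1.5-fold, neither Ccr2 nor Cx3cr1 was in the main setting. Type 2 dendritic-like cells had 45.8 and 49.5 CPM, far below the macrophage-like clusters.

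Ccr1, a receptor of Ccl3, Ccl5, Ccl6, Ccl7 and Ccl9 on neutrophils and macrophages, showed the largest ratio of the set. In Fcrls macrophage-like cells it was at 192 CPM in Sham (96 UMIs, 156 to 235) and 62.4 CPM in TBI (92 UMIs, 50.3 to 76.5), 3.08-fold lower in TBI. The log2 ratio was -1.62 (-2.05 to -1.19). A UMI was found in 32 of 74 Sham cells (43.2%, 31.8% to 55.3%) and in 54 of 241 TBI cells (22.4%, 17.3% to 28.2%). After thinning, 7 of 74 and 17 of 241 cells had one (9.46% and 7.05%), and the intervals of these shares overlapped. At full depth, 13 of 74 Sham cells held 3 or more Ccr1 UMIs, compared with 10 of 241 TBI cells. Of the 3 members measured in this class, Ccr1 and Cx3cr1 were past 1.5-fold, as were 11.9% of all genes there. Ccr2, at 210 and 250 CPM, was not.

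**Figure D3:**
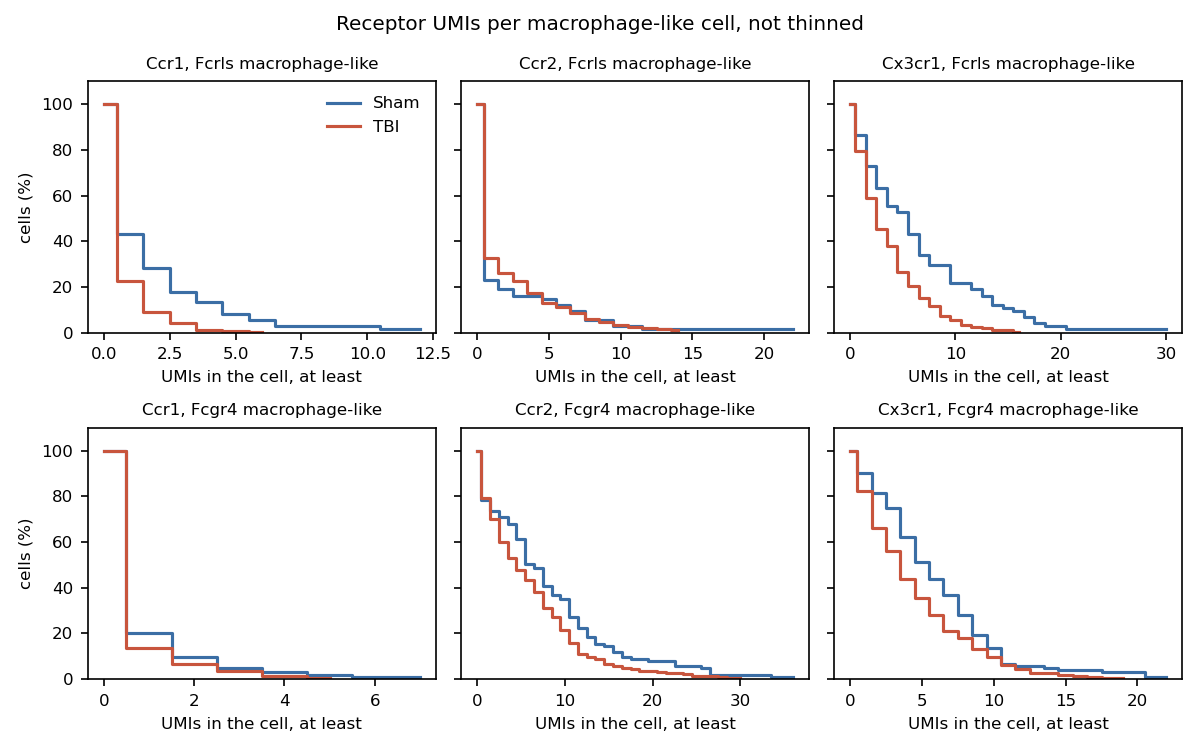
Share of cells (%) with at least a given number of UMIs of Ccr1, Ccr2 and Cx3cr1 in Fcrls (top) and Fcgr4 (bottom) macrophage-like cells, in Sham (blue) and TBI (red), not thinned. In the Fcrls cluster the TBI curves of Ccr1 and Cx3cr1 run below those of Sham, with 22.4% compared with 43.2% of cells at 1 or more Ccr1 UMIs, whereas the Ccr2 curve of TBI starts higher, at 32.8% compared with 23.0%.

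The Fcrls macrophage-like cells were not of the same make-up in both libraries. The part of this make-up in the receptor ratios was not tested. Clustered anew, they fell into 4 subclusters led by S100a6 (19 and 102 cells), Slc40a1 (35 and 70), Mvk (6 and 60) and F11r (14 and 9). The F11r-led cells, the richest in both genes, were thus more frequent in Sham. Ccr1 was lower in TBI in each of the 4, at 182 and 40.05 CPM, 137 and 79.3 CPM, 147 and 94.4 CPM, and 351 and 134 CPM in that order, although the Mvk-led Sham value rests on 4 UMIs in 2 of 6 cells. Cx3cr1 was lower in each as well, at 761 and 464 CPM, 683 and 589 CPM, 552 and 468 CPM, and 1745 and 1094 CPM. With the 4 subclusters weighted equally, the log2 ratio of Ccr1 was -1.23, within its counting interval, and that of Cx3cr1 was -0.52, which is under 1.5-fold. With cells assigned by their own markers, which does not separate the Ccl8 and Fcrls clusters, the ratio of Cx3cr1 over both was -0.22 rather than -0.62. Ccr2 sat mainly in the S100a6-led cells, at 541 and 375 CPM, and was lower in TBI there as well. It was also lower in the Slc40a1-led cells, at 31.9 and 7.68 CPM from 7 and 3 UMIs. In the Mvk-led cells it was higher in TBI, at 0 and 236 CPM, with only 6 Sham cells. The same held for the F11r-led cells, at 128 and 192 CPM from 12 and 10 UMIs. The median depth of the class was similar in both libraries (6271 and 5889 UMIs), the mitochondrial share was 1.43% and 1.84%, and the log2 ratios of its 12 macrophage markers ran from -0.35 to 0.15 with a median of -0.13, and the median over all genes tested in the class was -0.05. Their part in the receptor differences was not tested.

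**Figure D4:**
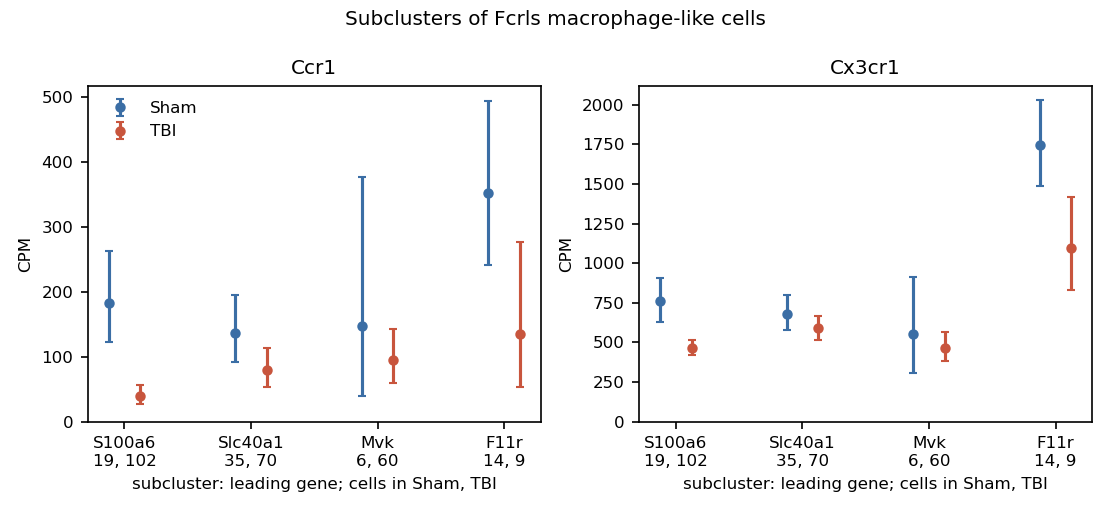
Ccr1 (left) and Cx3cr1 (right) in the 4 subclusters of Fcrls macrophage-like cells, as CPM with 95% Poisson intervals, in Sham (blue) and TBI (red). Each subcluster is named by its leading gene above its number of Sham and TBI cells. The TBI point lies below the Sham point in all 8 pairs, with overlapping intervals in some, and the F11r-led cells are highest for both genes.

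Outside the Fcrls cluster, Ccr1 was at 52.1 and 37.4 CPM in Fcgr4 macrophage-like cells, at 47.4 and 48.7 CPM in type 2 dendritic-like cells and at 33.3 and 38.1 CPM in Ccl8 macrophage-like cells. Over all 3 macrophage-like clusters it was at 93.9 and 47.6 CPM, a ratio of -0.98 (-1.31 to -0.65). Neutrophil-like cells had the highest level, 304 and 151 CPM, but from 14 UMIs in each library, in 11 of 16 Sham and 11 of 26 TBI cells. That ratio of -1.01 has an interval of -2.18 to 0.17 and includes 0.

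Ccr2 and Cx3cr1 were often found in the same cell. In Fcgr4 macrophage-like cells, 78 of 103 Sham cells (75.7%) and 169 of 253 TBI cells (66.8%) had a UMI of each, where the product of the shares was 71.0% and 65.6%. In Fcrls macrophage-like cells the counts were 16 of 74 (21.6%, product 19.9%) and 63 of 241 (26.1%, product 26.1%). Type 2 dendritic-like cells with Cx3cr1 nearly all had Ccr2 as well, 28 of 28 in Sham and 32 of 34 in TBI. Ccr2 was in 84.3% and 77.9% of all cells of this class. Both genes were in 20.9% (product 17.6%) and 16.8% (product 13.9%). After thinning, 4 Sham and 5 TBI cells had both, and 1 and 4 had Cx3cr1 alone. Few Ccl8 macrophage-like cells had both, 2 of 190 (1.05%, product 1.16%) and 12 of 312 (3.85%, product 2.48%). Deep cells show both genes more readily, and these values are a description with no test.

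**Figure D5:**
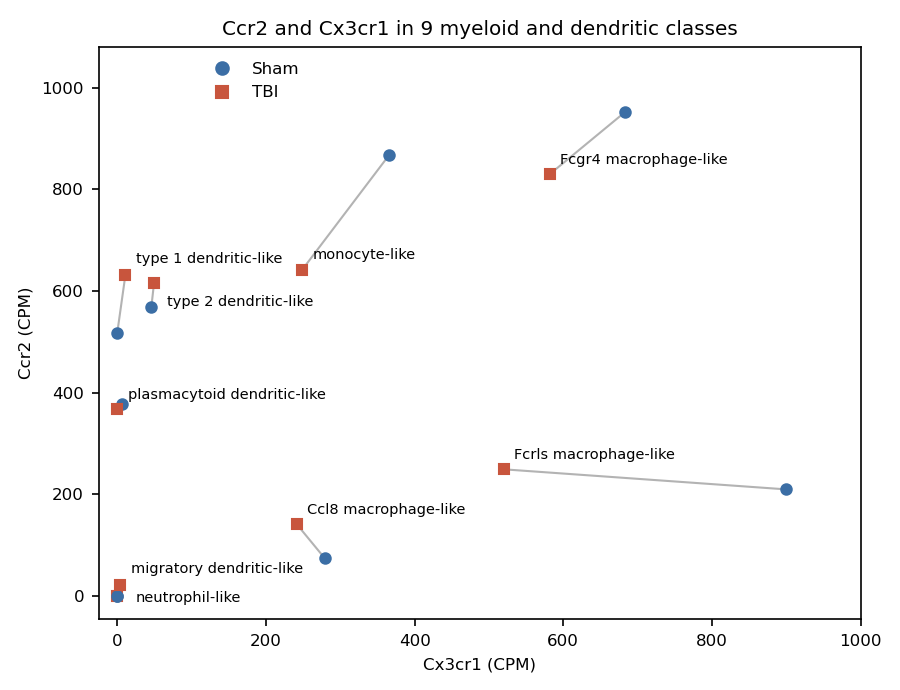
Ccr2 (vertical axis, CPM) against Cx3cr1 (horizontal axis, CPM) in 9 myeloid and dendritic classes. Circles are Sham, squares TBI, and a line joins the libraries of a class. The Fcrls cluster moves left along the Cx3cr1 axis from 900 to 520 CPM, and the Ccl8 cluster moves up the Ccr2 axis from 74.9 to 141 CPM. The dendritic-like classes stand at the left edge with little Cx3cr1. They carry Ccr2, apart from the migratory class, which has almost none.

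Cxcr4, the receptor of Cxcl12, retains neutrophils and developing B cells in bone marrow. Its level was spread over several classes and none of its 3 measured pairs (T-like, immature B-like and proliferating-like) was past 1.5-fold. Of all genes in these classes 9.4%, 9.26% and 17.5% were. Some alternatives took the pairs past it. Without predicted doublets the ratio in proliferating-like cells went from 0.06 to 0.91, while with cells assigned by their own markers it was -0.41. With receptors among the variable genes the ratio in T-like cells went from -0.52 to -0.71. Neutrophil-like cells had 238 and 173 CPM, from only 11 and 16 UMIs. Immature B-like cells, with Rag1, Rag2, Igll1 and Vpreb1, had 140 and 156 CPM, in 27 of 79 and 33 of 106 cells. Ms4a1 B-like and follicular B-like cells were lower, at 32.5 and 28.5 CPM and at 51.7 and 49.2 CPM. Their intervals lay below that of immature B-like cells in both libraries. T-like cells had 53.0 and 37.1 CPM, monocyte-like cells 78.8 and 69.7 CPM and proliferating-like cells 63.0 and 65.9 CPM.

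Xcr1, by which cross-presenting dendritic cells follow Xcl1 from NK and CD8 T cells, was all but confined to type 1 dendritic-like cells among the classes measured. Its level there was 352 CPM in Sham (53 UMIs, 264 to 460) and 375 CPM in TBI (138 UMIs, 315 to 443), in 11 of 14 and 28 of 32 cells. After thinning, a single random draw, the shares were 7.14% and 37.5%, and the Sham share is that of 1 cell in 14. The ratio was 0.08, with 13% of genes in the class past 1.5-fold. The next class, the Fcgr4 macrophage-like cells, had 4.15 CPM over both libraries. Over type 1 and type 2 dendritic-like cells together Xcr1 was at 40.2 and 87.8 CPM, and type 1 cells were 14 of 148 Sham and 32 of 222 TBI cells of the merged group. In a merged group, more Xcr1-bearing cells and more Xcr1 RNA per cell cannot be told apart, and within the type 1 class the level differed by less than its counting interval. The same cells had Cxcr3 at 133 and 177 CPM and Ccr2 as above, so all 3 members measured there stayed under 1.5-fold. Both Xcr1 and Cxcr3 were found in 9 of 14 Sham and 17 of 32 TBI cells.

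Ccr7 guides mature dendritic cells and naive lymphocytes toward Ccl19 and Ccl21 in lymph vessels and nodes. Migratory dendritic-like cells, with Fscn1, Ccl22 and Cacnb3, had 3419 CPM in Sham (598 UMIs, 3151 to 3705) and 3088 CPM in TBI (711 UMIs, 2865 to 3324), in 22 of 23 and 31 of 32 cells. The ratio was -0.15, in a class where 17.9% of genes differed at least 1.5-fold. With each cell given equal weight the ratio was -0.48, beyond its counting interval but still under 1.5-fold. B-like cells followed. Follicular B-like cells had 426 and 376 CPM, Ms4a1 B-like cells 191 and 203 CPM and immature B-like cells 127 and 101 CPM. None of the 6 pairs of a receptor and a B-like class was past 1.5-fold, where 12.1%, 9.18% and 9.26% of genes were.

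In T-like cells Ccr7 was lower in TBI, at 60.6 CPM (32 UMIs, 20 of 159 cells) and 37.1 CPM (29 UMIs, 21 of 219 cells). The ratio of -0.70 was past 1.5-fold, as for 9.4% of genes there, with an interval of -1.48 to 0.06, and it was -0.50, under 1.5-fold, with cells assigned by their own markers. Of those UMIs, 22 in Sham and 24 in TBI came from the subcluster with Cd8a, Cd8b1, Gzmk and Ccl5, at 120.5 and 80.5 CPM in 36 and 71 cells. The subcluster marked by Tnfrsf4 and Cd40lg, of 46 and 69 cells, had 1 Ccr7 UMI in Sham and none in TBI.

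Ccr9, the receptor of Ccl25 in gut and thymus homing, was highest in plasmacytoid dendritic-like cells, at 540 CPM in Sham (87 UMIs, 433 to 666) and 643 CPM in TBI (175 UMIs, 551 to 745). A UMI was found in 18 of 22 and 39 of 45 of these cells, or 45.0% and 47.7% after thinning. The ratio of 0.25 stayed under 1.5-fold, which 11.3% of genes in the class passed. ILC2-like cells were the second class, at 122 and 87.0 CPM in 18 of 104 and 19 of 136 cells, and neither Ccr2 nor Ccr9 passed 1.5-fold there, where 9.07% of genes did. The ratio of Ccr9, -0.48, passed it as a mean over cells (-1.21) and with cells assigned by their own markers (-0.61).

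Cxcr3, the receptor of the interferon-induced chemokines Cxcl9 and Cxcl10, marks effector T cells and NK cells. T-like cells had 403 CPM in Sham (213 UMIs, 351 to 461) and 442 CPM in TBI (345 UMIs, 396 to 491), in 87 of 159 and 140 of 219 cells. These shares were 54.7% and 63.9%, and after thinning they were 35.6% and 30.7%, the other way round. Within T-like cells, the Tnfrsf4-led subcluster had 568 and 619 CPM and the Cd8a-bearing one 246 and 366 CPM. Of the 4 members measured in T-like cells (Ccr2, Ccr7, Cxcr3 and Cxcr4), only Ccr7 was past 1.5-fold, as were 9.4% of all genes there.

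In NK-like cells, cytotoxic cells with Ncr1, Gzma and Prf1, Cxcr3 was higher in TBI, at 134 CPM (45 UMIs) and 213 CPM (63 UMIs). It was found in 25 of 87 Sham cells (28.7%, 19.5% to 39.4%) and 37 of 84 TBI cells (44.0%, 33.2% to 55.3%), whose median depths were 3517 and 3038 UMIs. The ratio was 0.66 (0.09 to 1.25), where 9.79% of genes in the class were past 1.5-fold, and it was 0.56, under 1.5-fold, with cells assigned by their own markers. Thinned to 1000 UMIs, in a single random draw, the shares were 17.4% and 17.1% and did not show the difference seen at full depth. As a mean over cells of scaled counts, the ratio of Cxcr3 was 1.03. Ccr2 in the same cells was at 304 and 301 CPM.

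Cxcr5, which draws B cells to follicles along Cxcl13, was found mainly in the follicular B-like and Ms4a1 B-like clusters. Follicular B-like cells, with Ighd, Fcer2a and Cr2, had 187 CPM in Sham (76 UMIs) and 151 CPM in TBI (43 UMIs), in 54 of 169 and 35 of 129 cells. Ms4a1 B-like cells had 81.3 and 105 CPM, in 50 of 207 and 39 of 166 cells. Over both clusters the level was 119 and 121 CPM. Over all cells it was 18.3 and 8.25 CPM, while these clusters made up 18.4% of Sham and 7.82% of TBI cells. Ccr7 likewise was at 126 and 73.2 CPM over all cells, but at 275 and 264 CPM over these B-like cells. Migratory dendritic-like cells, which held 598 of 994 Sham and 711 of 1021 TBI UMIs of Ccr7, made up 1.13% and 0.848% of cells. The part of these class shares in the differences over all cells was not tested.

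Receptor UMIs in non-immune classes set the background. Of 582 Sham and 1678 TBI cells in the 7 non-immune classes, with a median depth of 1798 and 2113 UMIs, Ccr2 was found in 8 (1.37%) and 36 (2.15%) and Cx3cr1 in 2 (0.344%) and 18 (1.07%). After thinning, the shares were 0.46% and 0.787% for Ccr2 and 0.46% and 0.358% for Cx3cr1. Predicted doublets were 9 of the 36 TBI cells with Ccr2 and 7 of the 18 with Cx3cr1. The other 7 members were found in at most 7 of these cells in a library, and Xcr1 in 0 of 582 Sham cells, which allows a share of up to 0.515% at a floor of 3 counts. The Ccr2 share in Ccl8 macrophage-like cells, 5.79% and 11.5%, was above this background in both libraries.

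The chemokines that bind these receptors were highest in other classes than the receptors. Of 16 ligands counted, only Ccl6 had the same top class as its receptor, Ccr1. Cx3cl1 and Cxcl12 were highest in Gpihbp1 endothelial-like cells, at 137 and 153 CPM and at 1964 and 1613 CPM. Ccl2 (90.01 and 62.4 CPM), Ccl7 (184 and 106 CPM) and Ccl12 (368 and 418 CPM), which bind Ccr2, were highest in Fcrls macrophage-like cells. Ccl3 (543 and 697 CPM) and Xcl1 (1128 and 1376 CPM) were highest in NK-like cells, Ccl6 (2688 and 2697 CPM) in neutrophil-like cells, Ccl9 (372 and 503 CPM) in monocyte-like cells and Ccl5 (15095 and 19019 CPM) in migratory dendritic-like cells. Ccl19 was highest in pericyte-like cells (332 and 406 CPM) and Ccl25 in fibroblast-like cells (54.7 and 30.0 CPM).

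Some ligand values rested on very few cells. Cxcl9 in type 1 dendritic-like cells was at 471 and 1011 CPM, from 3 Sham and 8 TBI cells, and the highest TBI cell alone held 120 of 372 UMIs. Cxcl10 in Fcgr4 macrophage-like cells was at 255 and 309 CPM, from 13 and 22 cells. Of the Ccl3 UMIs of NK-like cells, 1 cell held 111 of 182 in Sham and 1 cell held 102 of 206 in TBI. Ccl19 in pericyte-like cells rested in Sham on 14 UMIs in 3 cells, 11 of them in 1 cell. All 79 Cxcl13 UMIs of the Fcgr4 cluster came from 1 Sham cell. The Ccl21a UMIs of Vwf endothelial-like cells were 44 in 1 Sham cell and 1 in TBI. No symbol Cxcl11 was among the genes counted.

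Of 16 signalling partners of these receptors (G protein subunits, arrestins, receptor kinases, Rgs proteins and the Dock, Elmo, Rac and Coro1a group), between 2 and 15 had enough UMIs in each of the 16 classes. Of the 157 pairs of partner and class, 11 (7.01%) were past 1.5-fold, 4 higher and 7 lower in TBI. This share was below that of all genes in any of the 16 classes (7.35% to 17.9%), so the pairs named next are a description only. In Fcrls macrophage-like cells, where 11.9% of all genes were, 2 of 14 were past it: Pik3cg (-0.63), a kinase activated by G proteins, and Elmo1 (-0.80), a Rac activator, both lower in TBI. The median log2 ratio of these 14 was -0.12. In Fcgr4 macrophage-like cells, where 9.39% of all genes were, 1 of 15 was past 1.5-fold. It was Rgs1, a brake on chemokine receptor signalling, higher in TBI (1.49) from a low level (10.9 and 32.1 CPM). The same gene was the 1 of 10 past 1.5-fold in NK-like cells (1.13), where 9.79% of all genes were. In migratory dendritic-like cells, where 17.9% were, Rgs1 was lower in TBI (-0.61) and Arrb2 higher (0.65). The others were Grk2 in type 1 dendritic-like (-0.96) and proliferating-like (0.85) cells, Dock8 in plasmacytoid dendritic-like cells (-0.65), and Dock2 (-0.61) and Elmo1 (-0.86) in Ms4a1 B-like cells. In T-like cells none of 13 and in type 2 dendritic-like cells none of 14 was past 1.5-fold, and among all genes of the latter class 7.35% were. The members measured in type 2 dendritic-like cells (Ccr1, Ccr2 and Cx3cr1) stayed within 1.5-fold too. For other chemokine receptors, 16 pairs of receptor and class had enough UMIs in these classes, and 3 were past 1.5-fold. Among them was Cmklr1, the receptor of chemerin, in Fcrls macrophage-like cells (52.0 and 24.4 CPM), lower in TBI. Cmklr1 in Fcgr4 macrophage-like cells (27.9 and 18.7 CPM), also lower in TBI, was borderline. Its CPM values differed by just under 1.5-fold, and its ratio passed only through the amount added to each sum.

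The genes whose log level ran most closely with each receptor over the 48 sums of class and library were found by Pearson correlation. These sums share 2 libraries and the class structure, and the values are a description. For Cx3cr1 they were Fcgr1 (0.98), Csf1r (0.96) and Clec4a1 (0.95), and for Ccr1 Cd33 (0.91), Siglece (0.90) and Nfam1 (0.85). For Ccr2 they were Otulinl (0.90), Ramp1 (0.80) and Zyx (0.77). Xcr1 ran with Gpr141b, Fndc7 and Gcsam, Ccr7 with H2-Eb2, Il4i1 and Slco5a1, Ccr9 with Klk1, Gm21762 and Atp2a1, and Cxcr3 with Cd226, Sla2 and Ctsw. For Cxcr5 the nearest were Igkv3-5, Igkv5-39 and Cr2, and for Cxcr4 Cks2, 2310001H17Rik and Rbm38.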

How the data were processed

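Per the methods, the authors mapped reads to mm10 with Cell Ranger and deposited UMI counts per gene and barcode, without further normalization. The methods name version 1.3.1 of Cell Ranger, the matrix headers 3.1.0 and the submitters' processing notes 2.1.1. Which annotation release the reads were counted on is not stated in the sources read here. The matrices held 2699 Sham and 4349 TBI barcodes. Barcodes with 150 to 5000 genes, at most 20% mitochondrial and at most 5% hemoglobin UMIs were kept. Of the barcodes, 604 Sham and 431 TBI exceeded the hemoglobin limit. Predicted doublets were the cells with the most simulated doublets among their neighbours. Their number was fixed in advance from the cells in each library, at 0.8% per 1000 cells. They were 33 and 114 of the cells kept, a difference that follows from this rule, and were left in.

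Both libraries were clustered together on 2000 variable genes without chemokine receptors (20 principal components, 20 neighbours, Leiden resolution 0.8, seed 1), and a cluster took a name from at least 3 markers among its top 100 genes. Only the cluster with type 1 and type 2 dendritic markers was clustered again to make classes. Its part with the most type 1 markers became the type 1 class and the rest the type 2 class. Undivided, it had 2 of 5 members past 1.5-fold, Cxcr3 and Xcr1, as were 7.37% of its genes. UMIs were summed per class and library and given as CPM. Log2 ratios are TBI over Sham with 0.5 added to each sum. Pairs with at least 50 UMIs were read against 1.5-fold. No test was used, as there is 1 library per group, although the study's methods name ZINB-WaVE and DESeq2 for its own comparisons within clusters. All 9 receptors are reported, and of the ligands the class with the highest CPM. Results of 1 other receptor are not reported here. For the nearest patterns, 10 was added to each CPM. The members and gene lists were chosen with earlier results of these data known. Gene positions were matched by gene ID.

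Ratios and intervals were tried on simulated Poisson class sums with known fold changes. These sums follow the counting model of the intervals and hold no clumping of UMIs in cells, so spread beyond counting error was not tested. The alternatives tried were doublet removal, other limits on hemoglobin and mitochondrial UMIs, another scaling and total, cell means, marker-based classes, receptors among the variable genes and other minima. Python 3.11.15, numpy 2.4.6, scipy 1.17.1, pandas 2.3.3, scikit-learn 1.9.0 and leidenalg 0.10.2 were used.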

Additional observations from a re-analysis of the deposited data

Results flagged for a closer look

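The ratio of Ccr2 had opposite directions in 2 classes, at 0.88 in Ccl8 macrophage-like cells and -1.33 in proliferating-like cells. The difference between them was not tested, since each group is 1 library. In barcodes that the filters removed, most of them for their share of hemoglobin UMIs, 89 Ccr2 UMIs, 33 Cx3cr1 UMIs and 15 Cxcr3 UMIs were found. The same barcodes held 9 UMIs of Ccr7, 9 of Ccr9, 8 of Cxcr4, 6 of Ccr1, 5 of Cxcr5 and 0 of Xcr1. They were 656 Sham and 576 TBI barcodes, with 1660723 and 1070339 UMIs, and are in no result above. With 1 library per group, no check for a library that stands apart within its group was possible.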

How the results depend on the processing

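No paired analysis was possible because each group is 1 library, and for the same reason no library could be left out in turn. Of the 36 pairs with at least 50 UMIs, 7 were past 1.5-fold, and 2 of 36 were past 2-fold. With a minimum of 20 UMIs, 14 of 53 pairs were past 1.5-fold, and with no minimum beyond 1 UMI 82 of 137. The counts at 2-fold, 20 UMIs and 1 UMI were not made over all genes, so they show nothing particular to the receptors. Doublet removal, another scaling, other classes and receptors among the variable genes left the count of 7 within 1.5 times its value, but not always for the same pairs. Over all ratios and alternatives run, 313 stayed within their counting interval and 13 moved beyond it. No ratio that was past 1.5-fold turned its sign under any alternative run. Those that lead the account and moved were Ccr2 in Fcgr4 macrophage-like cells at -0.0102 as a mean over cells of scaled counts, and Cx3cr1 in Fcrls macrophage-like cells at -0.52 with its 4 subclusters weighted equally, an alternative chosen after seeing the data. Ccr1 in Fcrls macrophage-like cells ranged from -1.63 to -1.23 over 9 alternatives. Ccr2 ranged from 0.85 to 1.51 in Ccl8 macrophage-like cells and from -2.16 to -0.80 in proliferating-like cells, Cxcr3 in NK-like cells from 0.56 to 1.03, Ccr7 in T-like cells from -0.94 to -0.50 and Ccr2 in γδ or type 17 T-like cells from 0.35 to 0.77. Classes assigned by each cell's own markers kept 4661 of 5816 cells in place. Of the 4 pairs past 1.5-fold that this setting could give, 3 fell under it (Ccr7 in T-like cells, Ccr2 in γδ or type 17 T-like cells and Cxcr3 in NK-like cells). It also took 5 others past it, Ccr1 in Fcgr4 macrophage-like cells (-0.84), Ccr2 (-0.74) and Cx3cr1 (-0.68) in monocyte-like cells, Ccr7 in immature B-like cells (-0.63) and Ccr9 in ILC2-like cells (-0.61). It does not separate the Ccl8 and Fcrls clusters, so the ranges given above for either cluster leave it out. Over both clusters this setting moved Cx3cr1 from -0.62 to -0.22 and Ccr2 from 0.43 to 1.14. Ccr1 went from -1.31 to -1.07, within its counting interval. Ccr2 in γδ or type 17 T-like cells also fell under 1.5-fold with receptors among the variable genes (0.55) and as a mean over cells (0.47). Without the hemoglobin limit 463 cells were added, 343 of them to macrophage-like clusters. Cx3cr1 in Ccl8 macrophage-like cells then turned from -0.21 to 0.65, which is past 1.5-fold in the other direction. Ratios under 1.5-fold changed sign in up to 5 pairs per setting, among them Ccr2 in T-like cells, from -0.33 to 0.44 with cells assigned by their own markers. The causes were not tested. Depth limits the shares: thinned shares in most classes lie well below those at full depth.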
